A study of Mus musculus with 12 samples.

Results

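In this study of the fasting liver, 6 genes of ketone body synthesis, use and export were followed across 12 mouse livers. They are Bdh1, Bdh2, Acat1, Slc16a1, Slc16a6 and Oxct1, chosen by name from the 55487 annotated genes of the deposited tables, and all 6 had enough counts to be tested. The livers came from male mice aged 16 to 18 months kept on an ad libitum diet, in 4 groups of 3 animals. Fasted and fed knockout mice carried floxed Foxo3 alleles and a Cre gene under the albumin promoter, which is active in hepatocytes. Fasted and fed control mice carried the floxed alleles without Cre, so that Cre itself has no control of its own. Fasted mice were sampled after a night without food. Foxo3 encodes a forkhead transcription factor under the control of insulin signalling. The labels give no batch, so cohort or day and group cannot be told apart.

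In fasting, fatty acids from adipose tissue enter liver mitochondria and are oxidised to acetyl-CoA, part of which hepatocytes turn into acetoacetate. Bdh1 encodes the inner-membrane enzyme of mitochondria that reduces acetoacetate to 3-hydroxybutyrate, and Acat1 the mitochondrial thiolase that joins and splits acetoacetyl-CoA. Ketone bodies leave the cell through monocarboxylate carriers, and other organs burn them with the CoA transferase encoded by Oxct1, which hepatocytes are known to hold at very low levels.

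Bdh1 (ENSMUSG00000046598) lies on chromosome 16 from 31422280 to 31458901 on the plus strand of build mm10. Bdh2 (ENSMUSG00000028167), annotated in the deposited table as a cytosolic 3-hydroxybutyrate dehydrogenase, lies on chromosome 3 from 135281221 to 135304426 on the plus strand. RefSeq promoter windows on build GRCm38.p6 were found for 4 of the 6 genes. Those of Bdh1 and Bdh2, both named as 3-hydroxybutyrate dehydrogenases, are shown because their fitted fasting differences had opposite sign. The Bdh2 differences did not pass the threshold. The 250 bases before the first Bdh1 start (chr16:31422047-31422296, plus strand) and before the Bdh2 start (chr3:135280971-135281220, plus strand) read as follows, 5′ to 3′.
Bdh1: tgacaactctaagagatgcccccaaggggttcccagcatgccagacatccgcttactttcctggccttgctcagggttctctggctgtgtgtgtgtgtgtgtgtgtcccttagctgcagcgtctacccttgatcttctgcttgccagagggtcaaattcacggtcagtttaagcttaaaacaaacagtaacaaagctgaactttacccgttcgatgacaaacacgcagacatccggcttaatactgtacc
Bdh2: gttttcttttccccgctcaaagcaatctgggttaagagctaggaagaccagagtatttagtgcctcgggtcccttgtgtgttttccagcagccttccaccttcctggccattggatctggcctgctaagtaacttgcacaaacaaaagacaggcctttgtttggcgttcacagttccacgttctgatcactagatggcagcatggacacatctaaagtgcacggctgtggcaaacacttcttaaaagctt

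The windows of Bdh1, which has a pair of RefSeq starts, and of Bdh2, Slc16a1 and Oxct1 were searched on both strands from 250 bases before to 50 bases after the start. None of these 5 windows held the FoxO core GTAAACA, present in 3.65% of 32851 RefSeq windows. None held the cAMP response element TGACGTCA (1.79% of windows) or its core TGACG (20.8%), which overlaps it. None held the nuclear receptor half-site AGGTCA (16.3%), and so none held the DR1 element, a pair of these half-sites 1 base apart (0.0396%). For this reason no letter is in capitals. These letters were searched in these windows alone, and Acat1 and Slc16a6 were not searched.

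The libraries held 17520058 to 22414976 counts. Levels are given in CPM, counts scaled to a library of 1000000 with TMM factors, and genes were tested with edgeR's quasi-likelihood test, adjusted over 15862 genes, with a threshold of 0.05. Foxo3 counts were not lower in libraries labelled knockout. They stood at 46.6 to 53.6 CPM in fasted knockout, 58.8 to 62.2 CPM in fed knockout, 38.1 to 44.3 CPM in fasted control and 44.5 to 50.4 CPM in fed control livers. The floxed exons are not named in the labels, so this gene-level count does not check them. All 9 measured hepatocyte markers were detected in every library, with Alb at 43100 to 90100 CPM, while 6 markers of skeletal and heart muscle summed to at most 0.14 CPM. Fed control replicate 3 stood apart, with 8 stellate cell markers summing to 702 CPM against 173 to 390 CPM in the other libraries.

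Per unit of transcript length, in TPM, the order of the 6 genes was largely fixed. Acat1 was the highest at 185 to 380 TPM, followed by Bdh1 at 88.6 to 228 TPM and Slc16a1 at 16.2 to 34.5 TPM. Bdh2 came next at 3.61 to 14.4 TPM. Oxct1, at 1.58 to 6.91 TPM, and Slc16a6, at 1.51 to 5.39 TPM, were the lowest. Acat1 lay above Bdh1, Bdh1 above Slc16a1, Slc16a1 above Bdh2, and Bdh2 above both Oxct1 and Slc16a6 in all 12 libraries. The order of Oxct1 and Slc16a6 differed from library to library.

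**Figure D1:**
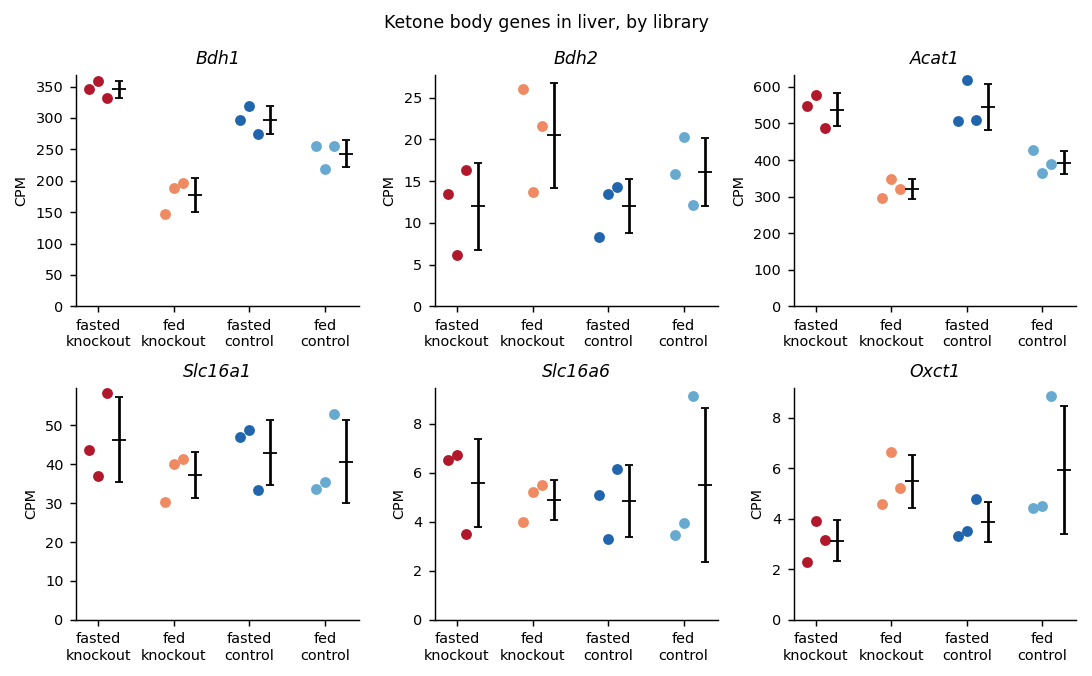
Level of each of the 6 genes in CPM (TMM-scaled) for every library, grouped as fasted knockout, fed knockout, fasted control and fed control; points are single livers, and the black mark with its bar is the mean ± SD (n = 3). In CPM, Bdh1 and Acat1 sit higher in fasted than in fed livers of both genotypes without overlap. A single fed control library is the highest for Slc16a6 and Oxct1.

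Of the 6 genes, Bdh1 and Acat1 rose with fasting in knockout livers, and Bdh2, Slc16a1, Slc16a6 and Oxct1 did not pass the threshold. Bdh1 stood at 345.6, 358.3 and 331.9 CPM in fasted knockout livers against 146.3, 188.4 and 196.4 CPM in their fed counterparts. The groups did not overlap, and fed knockout replicate 1 had the lowest Bdh1 level of all 12 libraries. Bdh1 rose 1.95-fold with fasting in knockout livers (log2 fold change 0.96, SE 0.13, edgeR adjusted p = 0.0028).

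In control livers Bdh1 stood at 297.2, 319.2 and 274.8 CPM after fasting and at 255.3, 218.8 and 255.3 CPM in the fed state. In CPM the groups again did not overlap, but lay closer together than in knockout livers. In TPM they overlapped, with fed control replicate 3 at 189.5 and fasted control replicates 2 and 3 at 184.6 and 180.1. The fitted difference was 1.22-fold (log2 0.29, SE 0.13, edgeR adjusted p = 0.23), which missed the threshold.

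Acat1 (ENSMUSG00000032047, chromosome 9, 53580522 to 53610382, minus strand) followed the same course. It stood at 548.5, 576.8 and 487.5 CPM in fasted knockout livers, against 294.8, 347.5 and 319.7 CPM in fed knockout livers. The 2 groups were fully separate. Acat1 rose 1.68-fold in knockout livers (log2 0.75, SE 0.13, edgeR adjusted p = 0.0097), a call that was lost without fed knockout replicate 1 (log2 0.69, adjusted p = 0.064).

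Acat1 in control livers stood at 507.2, 617.4 and 510.1 CPM after fasting and at 426.7, 364 and 388.5 CPM in the fed state. These groups were also separate. The difference of 1.39-fold (log2 0.47, SE 0.13) had an edgeR adjusted p of 0.055, just outside the threshold, and DESeq2 called it at 0.0032.

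Bdh2, whose enzyme is known for its place in the cytosol, passed the test in no comparison. It stood at 13.4, 6.201 and 16.3 CPM in fasted knockout livers against 26.08, 13.72 and 21.64 CPM in fed knockouts, with overlap (log2 -0.78, SE 0.36, edgeR adjusted p = 0.36). In controls it stood at 8.354, 13.46 and 14.3 CPM after fasting and at 15.86, 20.25 and 12.17 CPM in the fed state, again with overlap (log2 -0.42, SE 0.36, edgeR adjusted p = 0.58). The intervals of these differences were -1.59 to 0.03 in knockout and -1.22 to 0.39 in control livers. The knockout interval does not reach the fitted rise of Bdh1 in knockout livers (0.96). The control interval includes the fitted rise of Bdh1 in control livers (0.29). The difference between the 2 genes was not tested.

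The ratio of Bdh1 to Bdh2 within a library, in TPM, was higher in every fasted than in every fed knockout liver. It was 28.2, 63.2 and 22.3 in fasted knockout livers, against 6.13, 15 and 9.92 in fed knockout livers. In controls it was 38.9, 25.9 and 21 after fasting and 17.6, 11.8 and 22.9 in the fed state, where fed control replicate 3 lay above the lowest fasted library. The ratio was not tested.

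No comparison called a difference in the carriers among the 6 genes. Slc16a1 (ENSMUSG00000032902, chromosome 3, 104638668 to 104658462, plus strand) encodes a proton-coupled carrier of lactate, pyruvate and ketone bodies. It stood at 43.7, 37.02 and 58.28 CPM in fasted knockout, 30.42, 40.14 and 41.29 CPM in fed knockout, 46.91, 48.77 and 33.33 CPM in fasted control and 33.63, 35.45 and 52.89 CPM in fed control livers. All 4 groups overlapped. The fasting difference was 0.31 in knockout livers (log2, SE 0.22, interval -0.18 to 0.8, edgeR adjusted p = 0.58) and 0.08 in control livers (SE 0.22, interval -0.41 to 0.57, edgeR adjusted p = 0.89).

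Slc16a6 (ENSMUSG00000041920, chromosome 11, 109450855 to 109473598, minus strand) encodes a related carrier that exports 3-hydroxybutyrate from hepatocytes in zebrafish. It stood at 6.501, 6.74 and 3.513 CPM in fasted knockout, 3.972, 5.229 and 5.491 CPM in fed knockout, 5.091, 3.281 and 6.16 CPM in fasted control and 3.467, 3.928 and 9.126 CPM in fed control livers. These rest on 58 to 201 counts per library, and the groups overlapped. The fasting difference was 0.20 in knockout livers (log2, SE 0.38, interval -0.62 to 1.01, edgeR adjusted p = 0.87) and -0.18 in control livers (SE 0.37, interval -0.99 to 0.63, edgeR adjusted p = 0.84). Without fed control replicate 3 the control value turned to 0.39 (adjusted p = 0.58). The coding genes Arsg and Amz2 overlap Slc16a6 on the opposite strand. The strand setting of the counting is not given in the sources used here, so part of these counts may belong to them.

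Oxct1 (ENSMUSG00000022186, chromosome 15, 4026383 to 4155344, plus strand) was low in every liver, and its fasting difference passed the threshold in neither genotype. It stood at 2.3, 3.909 and 3.167 CPM in fasted knockout livers, against 4.599, 6.635 and 5.222 CPM in fed knockout livers, with no overlap (log2 -0.81, SE 0.3, edgeR adjusted p = 0.22). In controls it stood at 3.312, 3.507 and 4.768 CPM after fasting and at 4.417, 4.49 and 8.853 CPM in the fed state, with overlap (log2 -0.61, SE 0.3, edgeR adjusted p = 0.28). These values rest on 52 to 195 counts. Averaged over both genotypes the difference was -0.71 (SE 0.21, edgeR adjusted p = 0.054). It passed by DESeq2 (0.019), without the filter on low counts (0.027) and without fed control replicate 1 or 2 (0.041 and 0.046), with adjusted p from 0.041 to 0.13 over the 12 libraries left out in turn.

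Fed control replicate 3 held the highest Oxct1 and Slc16a6 of all 12 livers, and the second highest Slc16a1. All 8 stellate cell markers were detected in every library, and they summed to 173 to 390 CPM in fasted knockout, 203 to 340 CPM in fed knockout, 209 to 305 CPM in fasted control and 326 to 702 CPM in fed control livers. All 10 macrophage markers were detected as well, at sums of 337 to 471 CPM in fasted knockout, 373 to 671 CPM in fed knockout, 362 to 814 CPM in fasted control and 359 to 708 CPM in fed control livers. In fed control replicate 3, cholangiocyte markers summed to 141 CPM, against at most 61.2 CPM elsewhere. Spp1 made up 133 CPM of that sum. Krt7 was highest there, at 0.908 CPM, while Krt19, Epcam, Sox9 and Cldn7 lay within the range of the other libraries. Markers of T and NK cells summed to 15.8 CPM in fed control replicate 3, against at most 11.1 CPM elsewhere. Hepatocyte markers in that library had the lowest sum of all 12 libraries, 67000 CPM, next to 68100 CPM in fasted control replicate 3. Markers of B and plasma cells summed to 216 CPM in fasted control replicate 3, against at most 20.2 CPM elsewhere. Jchain made up 199 CPM of that sum. In bulk tissue, fewer cells of a type and less RNA per cell cannot be told apart. The part of these cells in the Oxct1 and Slc16a6 levels was not tested. Without fed control replicate 3 the Oxct1 difference in controls moved to -0.20 (edgeR adjusted p = 0.76). In knockout livers, whose groups do not include that library, the Oxct1 difference was -0.81 (SE 0.3, edgeR adjusted p = 0.22).

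**Figure D2:**
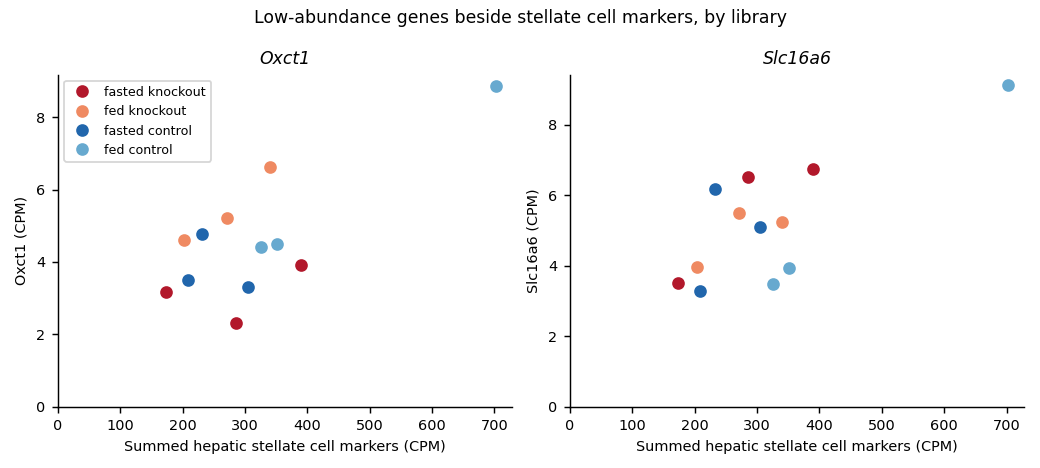
Oxct1 (left) and Slc16a6 (right) in CPM against the summed CPM of 8 hepatic stellate cell markers, with 1 point per liver coloured by group. Fed control replicate 3 lies alone at the right, at 702 CPM of marker, with the highest value of both genes.

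By count, 2 of the 6 genes passed in fasted against fed knockout livers, both higher, where 2.48% of all tested genes passed and 1.36% were higher. A further gene, Oxct1, was below 0.05 before adjustment, like 14.6% of all genes in that comparison. In control livers edgeR called 0 of 6, against 4.14% of all genes, while the unadjusted p was below 0.05 for 2 of 6 and for 19.4% of all genes. Acat1 was the 1 gene of the 6 that DESeq2 called there, among 1170 genes in all. Averaged over both genotypes 2 of 6 passed, Bdh1 (log2 0.63, SE 0.089, edgeR adjusted p = 0.001) and Acat1 (log2 0.61, SE 0.09, edgeR adjusted p = 0.0012), where 9.07% of all genes passed and 4.55% were higher. Before adjustment this average had 4 of 6 genes and 23.6% of all genes below 0.05. In CPM, libraries did not overlap for 3 of 6 genes in knockout and 2 of 6 in control livers, against 23.3% and 22.4% of all genes. The median log2 difference of the 6 genes was 0.25 in knockout livers and -0.05 in control livers, beside -0.006 and -0.003 over all genes.

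**Figure D3:**
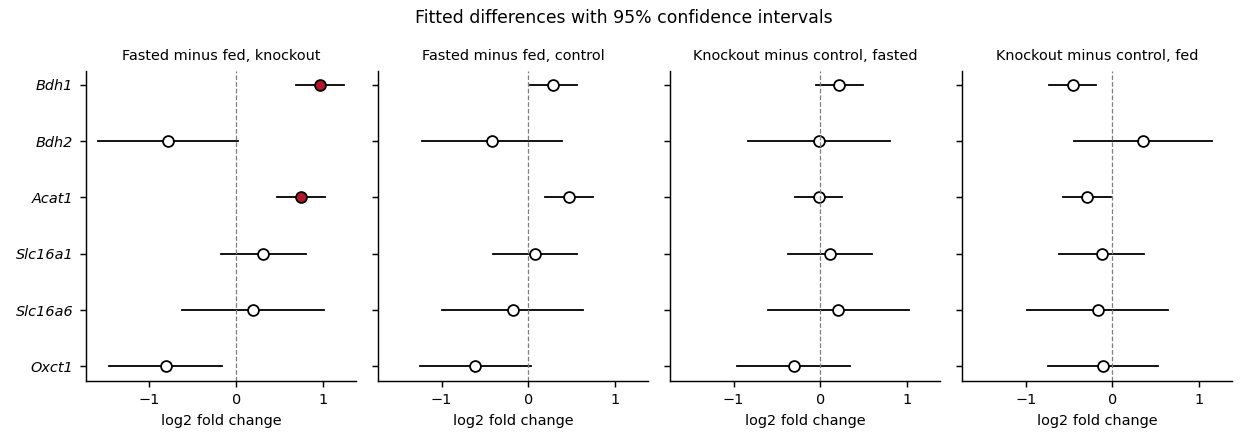
Fitted log2 fold changes (points) with 95% confidence intervals (bars) of the 6 genes in 4 comparisons, from the edgeR fit over all 12 livers; filled points passed an adjusted p of 0.05. The filled points are Bdh1 and Acat1 for fasting in knockout livers, at 0.96 and 0.75, and Bdh1 lies right of 0 in fasted and left of 0 in fed livers for knockout against control.

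Between genotypes, Bdh1 took opposite sides in the fed and the fasted state. In fasted livers all 3 knockouts, at 331.9 to 358.3 CPM, lay above all 3 controls, at 274.8 to 319.2 CPM (log2 0.22, SE 0.13, edgeR adjusted p = 0.64). In fed livers all 3 knockouts, at 146.3 to 196.4 CPM, lay below all 3 controls, at 218.8 to 255.3 CPM (log2 -0.46, SE 0.13, edgeR adjusted p = 0.68). Such a separation on opposite sides was seen for 0.788% of all tested genes. The test of this difference, the interaction of genotype and fasting, gave a log2 value of 0.67 (SE 0.18, interval 0.29 to 1.06) with an unadjusted p of 0.0023 and an edgeR adjusted p of 0.53. By DESeq2 the fed difference and the interaction passed for Bdh1 (adjusted p = 0.038 and 0.047), where 35 and 60 of all genes passed.

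Acat1 also lay lower in fed knockouts, at 294.8 to 347.5 CPM against 364 to 426.7 CPM in fed controls, but missed the threshold (log2 -0.29, SE 0.13, edgeR adjusted p = 0.81). In TPM these groups overlapped, with fed knockout replicate 2 at 231.5 and fed control replicate 2 at 224.5. In fasted livers it overlapped between genotypes, at 487.5 to 576.8 CPM in knockouts and 507.2 to 617.4 CPM in controls (log2 -0.02, SE 0.13, edgeR adjusted p = 0.97). Its interaction value was 0.27 (SE 0.18, edgeR adjusted p = 0.81). The ratio of Bdh1 to Acat1 within a library, in TPM, was 0.609, 0.6 and 0.658 in fasted and 0.48, 0.524 and 0.594 in fed knockout livers. It was 0.566, 0.5 and 0.521 in fasted and 0.578, 0.581 and 0.635 in fed control livers. Fasted knockout livers thus lay above fed knockout livers, and fasted control livers below fed control livers, each without overlap. The margins were small, at 0.6 against 0.594 in knockouts and 0.566 against 0.578 in controls, and the ratio was not tested. As background, 23.3% and 22.4% of single genes separated fasted from fed livers of knockouts and controls in CPM.

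Bdh2, Slc16a1, Slc16a6 and Oxct1 overlapped between genotypes in both feeding states. Their log2 differences were -0.02, 0.11, 0.20 and -0.31 in fasted livers and 0.35, -0.13, -0.17 and -0.11 in fed livers, each with an interval that spans 0. By edgeR 0 of the 6 genes passed between genotypes in fasted, fed or averaged livers or in the interaction, where 0.0315%, 0%, 0.0126% and 0.0063% of all tested genes did. Without adjustment 0 of 6 were under 0.05 in fasted livers (9.01% of all genes), 2 in fed livers (6.12%), 0 in the average (7.91%) and 1 in the interaction (7.19%). DESeq2 called 0, 1, 0 and 1 of the 6 in these comparisons, where it called 41, 35, 46 and 60 of all genes. In CPM, libraries did not overlap for 1 of 6 genes in fasted livers and 2 of 6 in fed livers, against 14% and 12.3% of all genes.

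Most genes of fatty acid oxidation rose with fasting in both genotypes. Of 19 tested genes of fatty acid entry and beta-oxidation, 15 rose in knockout and 12 in control livers, and 0 fell. Their median log2 differences were 0.89 and 0.61, beside -0.006 and -0.003 over all genes. As background for this list and those below, edgeR called 1.36% of all tested genes higher in knockout livers and 4.55% in the average. In control livers it called 325 of 15862 genes higher and 332 lower. Without fed knockout replicate 1 the knockout count of oxidation genes was 7, and the control count of oxidation genes was 6 without fasted control replicate 2 and 7 without fed control replicate 2. Hadhb, a subunit of the trifunctional protein, rose by 0.90 in knockout (SE 0.11, edgeR adjusted p = 0.0024) and by 0.89 in control livers (SE 0.11, 0.0017). Slc25a20, the carnitine carrier, rose by 1.16 (SE 0.16, 0.0038) in knockout and by 0.98 (SE 0.16, 0.0062) in control livers. Cpt1a and Cpt2, which pass acyl groups to and from carnitine, rose by 0.98 and 0.89 averaged over both genotypes (edgeR adjusted p = 4.9e-05 and 0.00011).

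Acat2 and Aacs, cytosolic enzymes that handle acetoacetyl-CoA or acetoacetate, fell with fasting averaged over both genotypes (log2 -0.93 and -2.08, edgeR adjusted p = 0.0016 and 0.00016). Of 9 genes of thiolases, Acat1 among them, and the cytosolic synthase, 3 rose and 0 fell with fasting in knockout livers, and 2 rose and 1 fell in control livers. Acat2, a thiolase of sterol synthesis, fell to 52.1 ± 8.9 CPM in fasted control livers, against 108 ± 20 CPM in fed control livers (log2 -1.05, SE 0.2, edgeR adjusted p = 0.013), a call that was lost without fasted control replicate 2 or 3 or fed control replicate 2. It stood at 62.4 ± 11 CPM in fasted knockout livers, against 109 ± 26 CPM in fed knockout livers (log2 -0.81, SE 0.2, edgeR adjusted p = 0.055). Its neighbour Acat3, a similar copy whose reads may be shared with it, stood at 246 ± 5.5 CPM in fasted knockout, 231 ± 16 CPM in fed knockout, 232 ± 11 CPM in fasted control and 228 ± 26 CPM in fed control livers. Aacs, which activates acetoacetate in the cytosol for lipid synthesis, fell to 46.8 ± 7 CPM in fasted knockout livers, against 180 ± 53 CPM in fed knockout livers (-1.95, SE 0.28, edgeR adjusted p = 0.007). It fell to 38.4 ± 11 CPM in fasted control livers, against 178 ± 51 CPM in fed control livers (-2.21, SE 0.29, edgeR adjusted p = 0.0026). Aacs and Oxct1 were the tested genes of the list of ketone body use.

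Of 14 tested monocarboxylate carriers and chaperones, Slc16a1 and Slc16a6 among them, 1 rose with fasting in knockout livers and 1 in the average of both genotypes. In control livers 0 passed by edgeR or DESeq2, with 1 at an unadjusted p below 0.05. The carrier that rose in knockout livers was Slc16a7, another carrier of pyruvate, lactate and ketone bodies. It stood at 161, 155 and 172 CPM in fasted knockout livers, against 85.2, 106 and 110 CPM in fed knockouts (log2 0.69, SE 0.16, edgeR adjusted p = 0.034). No carrier passed in knockout livers without fasted knockout replicate 1 or 2, or without any single fed knockout replicate. In controls it stood at 108, 145 and 113 CPM after fasting and at 128, 114 and 164 CPM in the fed state (-0.15, SE 0.15, edgeR adjusted p = 0.65). Like Bdh1, Slc16a7 separated the genotypes on opposite sides in CPM. It was higher in knockouts after fasting (0.41, edgeR adjusted p = 0.52) and lower in the fed state (-0.43, edgeR adjusted p = 0.81). Its interaction value was 0.84 (SE 0.22, edgeR adjusted p = 0.53). In TPM the fed groups overlapped, at 17 to 22.8 in knockouts and 22.3 to 40.1 in controls. Slc16a5 rose by 1.03 averaged over both genotypes (SE 0.23, edgeR adjusted p = 0.019), and no carrier passed in that average without fed knockout replicate 1. Bsg, the chaperone that carries Slc16a1 to the membrane, had an averaged difference of 0.10 (SE 0.077, edgeR adjusted p = 0.46).

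**Figure D4:**
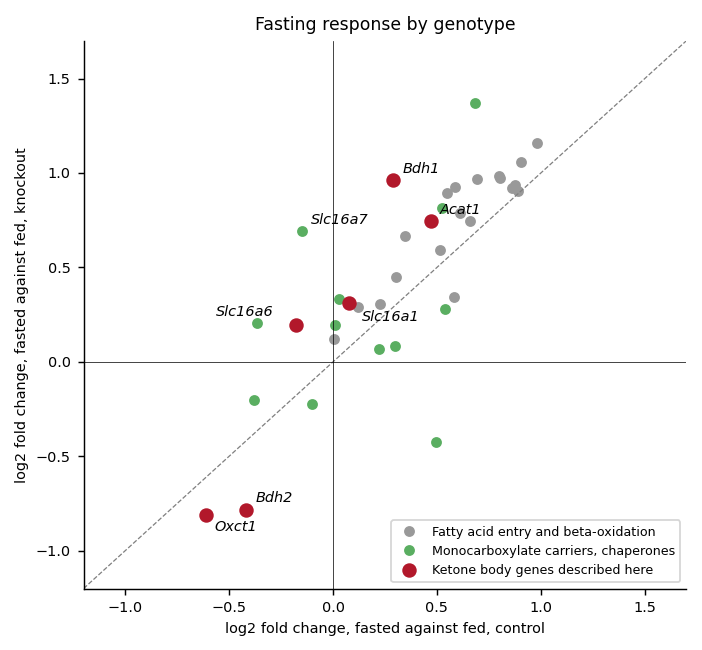
Log2 fold change with fasting in knockout livers (vertical) against that in control livers (horizontal) for the 6 genes (red), fatty acid entry and beta-oxidation genes (grey) and monocarboxylate carriers and chaperones (green); the dashed line marks equal change. Bdh1 (0.96 and 0.29) and Slc16a7 (0.69 and -0.15) lie above the line, while Bdh2 and Oxct1 lie below 0 on both axes.

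Among 11 regulators of hepatic ketogenesis, 2 rose with fasting in knockout and 2 in control livers. None passed in knockout livers once any 1 fasted or fed knockout library was left out, and 1 to 3 passed in control livers with 1 library left out. In a fit of the compared groups alone, 0 passed in control and 3 in knockout livers. Creb3l3, a liver transcription factor active in fasting, rose by 0.66 in knockout (SE 0.15, edgeR adjusted p = 0.033) and by 0.79 in control livers (SE 0.15, 0.011). Ppara, the nuclear receptor that drives oxidation and ketogenesis genes, stood at 217, 225 and 196 CPM in fasted knockout livers, against 129, 144 and 159 CPM in fed knockouts (0.56, SE 0.13, edgeR adjusted p = 0.036). In controls it stood at 151, 146 and 172 CPM after fasting and at 182, 137 and 154 CPM in the fed state (-0.01, SE 0.13, edgeR adjusted p = 0.97), and its interaction value was 0.57 (SE 0.18, edgeR adjusted p = 0.56). Fgf21, a fasting hormone of the liver, stood at 2.62 ± 0.7 CPM in fasted knockout, 0.699 ± 0.62 CPM in fed knockout, 4.47 ± 1.1 CPM in fasted control and 1.83 ± 1.6 CPM in fed control livers, and its averaged difference of 1.6 on the log2 scale missed the threshold (edgeR adjusted p = 0.052). Ppara and Slc16a7 were set beside Bdh1 after their values were seen, as were the ratio to Acat1 and the half-site search. Of 11 short-chain dehydrogenases, with Bdh1 and Bdh2 among them, 3 rose in each genotype, and 0 to 2 passed in control livers with 1 library left out, with 0 without fasted control replicate 2 or fed control replicate 2 or 3. Those that rose include Dhrs4, a carbonyl reductase (0.64 in knockout, 0.48 in control livers, edgeR adjusted p = 0.0092 and 0.023).

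Across the 12 livers, which share the fasting contrast, the closest patterns among 9243 other genes (9244 for Oxct1) with a mean of at least 5 CPM are given as a description. Bdh1 was closest to Vnn1 (Pearson r = 0.973), Rtf2 (0.958) and Mgll (0.955), and it had r = 0.94 with Acat1. Acat1 had r = 0.976 with Ech1 and 0.972 with Acads, enzymes of fatty acid oxidation. Bdh2 was closest to Otc (0.932), Aldh1l1 (0.921) and Mdh1 (0.903), and had r = -0.71 with Bdh1. Slc16a1 was closest to Gsdme (0.895), Dusp3 (0.893) and Ankrd13a (0.888). Slc16a6 was closest to Wdfy4 (0.912), Abracl (0.891) and H1f2 (0.877). Oxct1 was closest to Uba7 (0.895), Lacc1 (0.894) and Tpm4 (0.893). For Slc16a6 and Oxct1, these values share the high fed control replicate 3.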

How the data were processed

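RNA from 12 frozen livers was sequenced as strand-specific poly(A) libraries, per the labels' protocols. Per the submitters' processing notes, HISAT2 2.1.0 and featureCounts 1.6.3 were used with build mm10, besides Trimmomatic 0.38, bcl2fastq 2.19 and DESeq2 1.24.0. The authors deposited raw counts per gene and a table of TPM, which sums to 1000000 in each library. The sources used here name neither the strand setting of the counting nor the annotation release. Groups come from the titles. The counts were tested with edgeR 4.0.16 in R 4.3.3 (TMM factors of 0.923 to 1.12, filterByExpr, robust quasi-likelihood fit of 4 group means, 2-sided, Benjamini-Hochberg adjustment over 15862 genes in each of 7 comparisons). Tested genes held 99.87% or more of every library's counts. TPM served for levels between genes and ratios. The fit was also run on counts simulated from a model of the same kind with known changes. These simulated counts held no outlier library, so that run checks the code and not the results given here. Alternatives were RLE size factors, no filter, DESeq2 1.42.0, a fit of the compared groups, a replicate block and leaving out each library. Genes outside the 6 were named by smallest p within lists, as paralogs, or by correlation of log2 CPM (prior count 2). The 6 genes and all lists were chosen with earlier results of these data known. Not every gene of these lists is reported here.

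Replicates are biological replicates, per the series design. Each edgeR p-value sets a difference between groups against the spread between replicates, estimated over all 4 groups together. No 2 libraries held the same counts. Counting error, given for Oxct1 and Slc16a6, leaves out the spread between livers.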

Additional observations from a re-analysis of the deposited data

Results flagged for a closer look

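Bdh1 is singled out because every knockout library lay above every control library after fasting and below every one in the fed state. The difference between these effects, tested as the interaction, was 0.67 on the log2 scale (SE 0.18) and missed the threshold by edgeR (adjusted p = 0.53, rank 66 of 15862 genes by p). It ranged from 0.55 without fed knockout replicate 1 to 0.76 without fed knockout replicate 3, with adjusted p from 0.37 to 0.98 when any 1 library was left out. Fed knockout replicate 1 had the lowest Bdh1 of all libraries, and without it the fed difference was -0.34 (adjusted p = 1), against -0.46 with all libraries.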

How the results depend on the processing

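Direction and side of the threshold held in 185 of the comparisons of the 6 genes under alternatives that keep all libraries. The exceptions were 6 that newly passed and 1 that turned, Bdh2 between genotypes in fasted livers (0.0020 by DESeq2). Leaving out 1 library gave 462 unchanged values, 39 reversed ones, 2 that newly passed and 1 that no longer passed. Of the 6 genes, DESeq2 called 1 for fasting in controls (0 by edgeR), 1 between fed genotypes (0) and 1 in the interaction (0). For the average of fasting over genotypes, 3 passed without the filter, by DESeq2 and with the replicate block (2), the third being Oxct1 (adjusted p = 0.027, 0.019 and 0.044 under these settings).

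Genes called among all tested numbered 393 for fasting in knockout livers, with 791 by DESeq2, 232 with the replicate block and 88 (without fed knockout replicate 1) to 573 (without fed control replicate 3) with 1 library left out. In controls the 657 calls became 1170 by DESeq2, 312 in a fit of the compared groups, 439 with the replicate block and 272 to 648 with 1 library left out. The average of fasting had 1438, and 1025 to 1425 with 1 library left out. Between fasted genotypes the 5 calls became 13 without the filter, 41 by DESeq2, 1 in a fit of the compared groups, 3 with the replicate block and 1 to 6 with 1 library left out. Between fed genotypes the 0 calls became 5, 35 and 1 under the first 3 of these settings, and 0 to 1 with 1 library left out. The average of genotypes (2) had 4 without the filter, 46 by DESeq2 and 1 to 3 with 1 library left out, and the interaction (1) had 5, 60 and 1 to 3. The cause of these shifts was not tested.

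With 1 library left out, members called for fasting in knockout livers ranged from 1 to 2 and in the average from 2 to 3. Values that changed sign, each below the threshold throughout, were fasting in controls for Slc16a1 (-0.039 to 0.31) and Slc16a6 (-0.42 to 0.39), and the average of fasting for Slc16a6 (-0.11 to 0.30). Between fasted genotypes they were Bdh2 (-0.30 to 0.30), Acat1 (-0.072 to 0.082), Slc16a1 (-0.089 to 0.25) and Slc16a6 (-0.0029 to 0.45). Between fed genotypes they were Slc16a1 (-0.24 to 0.10), Slc16a6 (-0.41 to 0.39) and Oxct1 (-0.28 to 0.29). In the average of genotypes they were Slc16a1 (-0.11 to 0.10) and Slc16a6 (-0.10 to 0.30), and in the interaction Slc16a6 (-0.19 to 0.62).

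Deviations of same-numbered replicates had correlations of -0.284 to 0.184, with 3 of 18 above 0.1. These gave no sign that the numbers pair the samples, but groups of 3 libraries cannot exclude it. The replicate block left 2 of the 6 genes called for fasting in knockout livers. Counting error for Oxct1 and Slc16a6 was 7.05% to 13.9% a library, while their levels varied by 37.9% and 33.3% (coefficient of variation over 12 libraries).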
